A study of Mus musculus with 6 samples.

Results

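Transcripts of 10 T cell genes (Cd3d, Cd3e, Cd3g, Cd4, Cd8a, Cd8b1, Lck, Cd2, Cd5 and Gzmb) were followed in whole mouse kidney. The genes were chosen by symbol, as familiar markers of T lymphocytes, and all 10 were found among the 24422 genes of the count tables. RNA was sequenced from 6 kidneys of C57BL/6 mice aged 60 postnatal days, with 3 kidneys of control (wild type) mice and 3 of genotype Tfr1f/f;KspCre. In the second group the exons for the transmembrane domain of the transferrin receptor (Tfrc, or TfR1) were floxed on both alleles. KspCre is a Cre transgene driven by the Ksp-cadherin promoter, whose activity lies in epithelium of the distal nephron. By design cells without Cre activity keep the gene, which was not measured here. Every mouse received iron-sufficient food with 220 ppm iron, and the libraries labelled with this genotype are called knockouts. The control mice were wild type, so the effect of the Cre transgene itself cannot be told apart from that of the deletion.

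T cells recognise peptides on other cells through the T cell receptor, which signals by way of the CD3 chains bound to it. CD4 and CD8 are co-receptors that bind class II and class I histocompatibility molecules and bring the kinase LCK to the receptor, which divides most T cells into helper and cytotoxic classes. A healthy kidney holds few T cells, and they accumulate in the interstitium in many forms of kidney injury.

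Total counts ranged from 11501053 in knockout 3 to 21001341 in control 1. Control libraries 1, 2 and 3 held 2783, 2856 and 1032 counts of Tfrc, and the libraries labelled knockout 1, 2 and 3 held 4368, 1713 and 530. Knockout 1 was thus above every control. The counts cover the whole gene and not the floxed exons alone, and so gave no check of the labels. Control 2 held 52 counts of Xist and 1451 of the Y-linked gene Ddx3y, whereas the other libraries held at least 10458 and at most 4, so sex was not balanced between the groups. The ribosomal transcript Rn45s took 2.59% of the counts of knockout 3 and 0.506% to 0.745% of the others. Over all 15171 genes tested, 1604 (10.6%) were called higher and 1008 (6.64%) lower in knockouts by the quasi-likelihood test of edgeR (Benjamini-Hochberg adjusted p under 0.05), and the smallest adjusted p was 0.0271. All these calls were lost without any 1 of the 3 controls.

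All 10 T cell genes were scarce in control kidneys, at 2.40 CPM or less in every control, and most but not all were several times more abundant in knockouts. Of the 10 genes, 9 passed the filter on low counts, 7 of those 9 were called higher against 10.6% of all genes tested, and 0 were called lower. The called genes were Cd3d, Cd3e, Cd3g, Cd4, Cd8b1, Lck and Cd5, with fitted rises from 5.56-fold (Cd8b1) to 8.70-fold (Cd3d). Cd2 and Cd8a were tested and not called, and Gzmb was too low to be tested. Cd3d, Cd3e, Cd3g, Cd8b1, Cd2 and Cd5 had fewer than 10 counts in at least 1 control and passed the filter through the knockouts, where they were higher, so the counts over the 9 tested genes are a description and not support for a difference. The median log2 fold change of the 9 tested genes was 2.68, beside 0.02 over all genes tested, and 8 of the 9 were above 4-fold, as were 5.74% of all genes. In 8 of the 10 genes each knockout lay above each control, which was so for 23.8% of all genes tested. Levels are given in CPM, counts scaled to one common library total with TMM factors. In such whole-tissue RNA, more T cells and more RNA per T cell cannot be told apart.

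**Figure D1:**
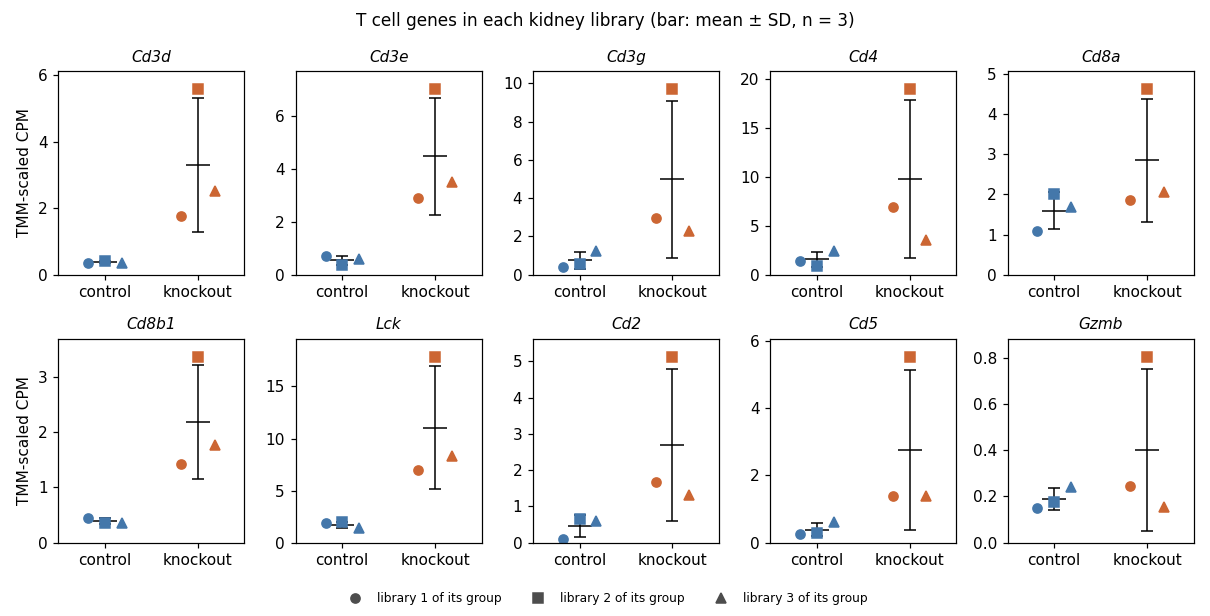
TMM-scaled CPM of each T cell gene (vertical axes, each from 0) in the 3 control and 3 knockout libraries, with points shaped by library number and bars for the mean ± SD. Knockout 2 is the highest library in all 10 panels, and the groups overlap for Cd8a and Gzmb.

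The CD3 delta, epsilon and gamma chains, without which the receptor does not reach the surface of the cell, are encoded by 3 neighbouring genes. In mm9 coordinates Cd3g (ENSMUSG00000002033) lies on chromosome 9 at 44777655 to 44788514 on the minus strand. Cd3d (ENSMUSG00000032094) lies at 44789876 to 44795135 on the plus strand, 1361 bases away, and Cd3e (ENSMUSG00000032093) at 44806826 to 44817673 on the minus strand. None of the 10 T cell genes overlapped another gene annotated in GENCODE M1. Of the 100-base words of each longest transcript, 100% were absent from the longest transcripts of other protein-coding genes. Pseudogenes and noncoding genes were not searched for these words. The annotation behind the counts is not given, so whether counts were shared with other genes was not settled.

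In library order 1, 2, 3, as in all values that follow, Cd3d was at 0.348, 0.411 and 0.36 CPM in controls and at 1.77, 5.57 and 2.53 CPM in knockouts. The controls were nearly equal, and the lowest knockout was several times above them. The log2 fold change was 3.12 (SE 0.54, n = 3 per group; edgeR, adjusted p 0.0286). Cd3e was at 0.697, 0.353 and 0.60 CPM in controls and at 2.90, 7.03 and 3.52 CPM in knockouts, again without overlap (log2 fold change 3.01, SE 0.49; edgeR, adjusted p 0.0277). Cd3g was less even, at 0.398, 0.588 and 1.26 CPM in controls and 2.94, 9.69 and 2.30 CPM in knockouts. Its control 3 was the closest to the knockouts of any library of a CD3 gene, and of the 7 calls it was the closest to the threshold (log2 fold change 2.74, SE 0.72; edgeR, adjusted p 0.0453). For all 3 chains each knockout was thus above each control, and knockout 2 was the highest library. As said above, these genes passed the filter through the knockouts, so this is a description and not support for a difference.

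Start regions of these genes are shown because their transcripts moved together, with Lck as the kinase of the same pathway and Cd8a as one of the genes that were not called. Of the 10 genes, 7 had an entry among RefSeq's promoters (GRCm38.p6, not the build of the counts), each of 300 bases with 250 before the start and 50 after it. The regions are chr9:44981536-44981835 (plus strand) for Cd3d, chr9:45009562-45009861 (minus) for Cd3e, chr9:44980382-44980681 (minus) for Cd3g, chr4:129573592-129573891 and chr4:129558323-129558622 (minus) for 2 starts of Lck, and chr6:71373177-71373476 (plus) for Cd8a. Capitals mark matches on either strand to GGAAG (a core of ETS factor sites, CTTCC on the other strand), TGTGGT (a core of RUNX sites, ACCACA) and CAGGTG (an E-box, the site class of E proteins, CACCTG), and no match shared a base with another motif's match.
Cd3d: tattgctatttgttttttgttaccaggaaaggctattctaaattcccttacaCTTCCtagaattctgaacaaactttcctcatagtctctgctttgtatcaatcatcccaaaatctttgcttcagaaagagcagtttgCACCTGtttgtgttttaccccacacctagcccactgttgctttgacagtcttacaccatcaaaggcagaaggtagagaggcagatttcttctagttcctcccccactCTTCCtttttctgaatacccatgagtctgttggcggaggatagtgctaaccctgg
Cd3e: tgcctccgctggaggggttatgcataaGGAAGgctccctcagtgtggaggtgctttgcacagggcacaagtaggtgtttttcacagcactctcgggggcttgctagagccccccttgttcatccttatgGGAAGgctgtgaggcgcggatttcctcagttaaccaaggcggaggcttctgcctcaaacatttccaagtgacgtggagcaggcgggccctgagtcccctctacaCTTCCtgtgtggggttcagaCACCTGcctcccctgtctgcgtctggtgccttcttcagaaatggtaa
Cd3g: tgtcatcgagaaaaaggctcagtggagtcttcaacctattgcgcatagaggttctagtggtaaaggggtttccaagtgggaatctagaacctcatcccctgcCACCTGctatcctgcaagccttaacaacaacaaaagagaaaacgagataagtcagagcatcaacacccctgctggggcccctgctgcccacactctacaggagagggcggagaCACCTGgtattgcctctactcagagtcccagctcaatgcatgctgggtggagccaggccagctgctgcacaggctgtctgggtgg
Lck, upstream start: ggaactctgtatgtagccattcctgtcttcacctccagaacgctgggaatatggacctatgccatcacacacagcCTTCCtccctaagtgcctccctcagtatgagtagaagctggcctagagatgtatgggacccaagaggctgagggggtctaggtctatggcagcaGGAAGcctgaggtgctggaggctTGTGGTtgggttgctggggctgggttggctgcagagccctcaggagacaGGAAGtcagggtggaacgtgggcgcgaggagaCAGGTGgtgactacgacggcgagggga
Lck, downstream start: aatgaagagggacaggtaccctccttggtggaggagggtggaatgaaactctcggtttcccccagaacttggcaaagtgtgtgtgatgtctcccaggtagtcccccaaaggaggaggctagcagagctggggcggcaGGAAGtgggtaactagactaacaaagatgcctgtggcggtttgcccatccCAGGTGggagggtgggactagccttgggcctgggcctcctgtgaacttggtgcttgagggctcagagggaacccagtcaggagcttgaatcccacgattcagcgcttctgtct
Cd8a: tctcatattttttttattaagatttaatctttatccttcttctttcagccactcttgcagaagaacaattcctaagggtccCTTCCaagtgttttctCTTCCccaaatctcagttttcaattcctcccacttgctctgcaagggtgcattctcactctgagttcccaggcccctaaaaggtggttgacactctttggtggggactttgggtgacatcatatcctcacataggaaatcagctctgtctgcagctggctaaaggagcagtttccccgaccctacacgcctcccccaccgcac

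The E-box letters were found in 6 of the 8 entries of these genes, those of Cd3d, Cd3e, Cd3g, Cd5 and both of Lck, and in 20.2% of all 32851 promoter entries. GGAAG was in 6 of the 8 entries and in 71.4% of all, and TGTGGT in 2 of the 8 (Gzmb and the upstream start of Lck) and in 16.8% of all. The motifs were chosen with these promoters in view, and 2 of the 8 entries belong to Lck, so the shares only describe letters. Enrichment and any relation to the changes between groups were not tested, and binding was not measured.

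Of the co-receptor genes, Cd4 and Cd8b1 were called higher and Cd8a was not. Cd4 (ENSMUSG00000023274; chromosome 6, 124814710 to 124838239, minus strand, mm9), the co-receptor of helper and regulatory T cells, was at 1.39, 0.940 and 2.40 CPM in controls and 6.92, 18.9 and 3.52 CPM in knockouts. Knockout 3 was nearest to the controls, though still above all of them. Its log2 fold change was 2.63 (SE 0.69, n = 3 per group; edgeR, adjusted p 0.0450). Cd8b1 (ENSMUSG00000053044; chromosome 6, 71272830 to 71287471, plus strand, mm9) encodes the CD8 beta chain, which pairs with the alpha chain on cytotoxic T cells. It was at 0.448, 0.353 and 0.360 CPM in controls and 1.42, 3.36 and 1.76 CPM in knockouts. The groups were well apart, the log2 fold change being 2.47 (SE 0.46; edgeR, adjusted p 0.0303).

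Cd8a (ENSMUSG00000053977; chromosome 6, 71323421 to 71329165, plus strand, mm9) lies 35949 bases from Cd8b1 and encodes the CD8 alpha chain, which certain dendritic cells also carry. It was at 1.09, 2.00 and 1.68 CPM in controls and at 1.87, 4.62 and 2.07 CPM in knockouts. Knockout 1 lay below control 2, so the groups overlapped. Its log2 fold change, 0.85 (SE 0.47), did not pass the threshold (edgeR, adjusted p 0.221). It stayed uncalled in all 14 alternatives, with values from 0.30 to 1.14.

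Counts of Cd8b1 were also set against those of Cd8a within each library. There were 0.422, 0.188 and 0.228 counts of Cd8b1 per count of Cd8a in controls, and 0.766, 0.730 and 0.855 in knockouts. All 3 knockouts were above all 3 controls. This ratio was chosen after the values were seen and was not tested. The ratio of Cd8a to Cd4 was 0.789, 2.09 and 0.704 in controls and 0.272, 0.245 and 0.591 in knockouts. Its mean log2 value was 0.07 ± 0.86 in controls and -1.55 ± 0.69 in knockouts (SD, n = 3 each). The difference of -1.63 had an exact permutation p of 0.1 (two-sided), the smallest that 3 against 3 libraries allow, and 0.1 after adjustment over the 2 ratios tested.

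**Figure D2:**
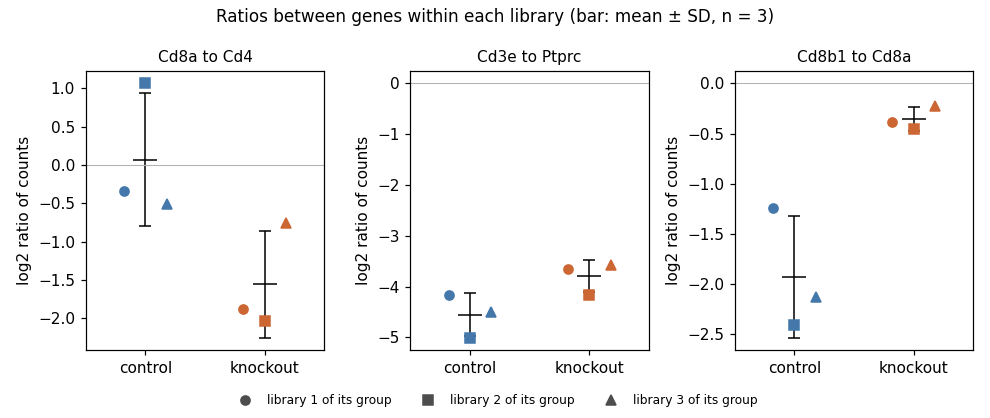
Log2 ratio of counts (vertical axes, 0.5 added to each count) of Cd8a to Cd4, Cd3e to Ptprc and Cd8b1 to Cd8a in each library, with bars for the mean ± SD (n = 3). The groups do not overlap in any panel, and the 3 knockouts lie close together, between -0.45 and -0.23, for Cd8b1 to Cd8a.

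Lck (ENSMUSG00000000409; chromosome 4, 129225588 to 129250885, minus strand, mm9) encodes the kinase that first phosphorylates the CD3 chains, and NK cells use it as well. It was at 1.84, 1.94 and 1.38 CPM in controls and 7.02, 17.8 and 8.27 CPM in knockouts. Controls were tight, and the lowest knockout was several times above the highest of them. The log2 fold change was 2.68 (SE 0.43, n = 3 per group; edgeR, adjusted p 0.0277). Lck had counts of 23 to 37 in each control and was one of 3 genes of the 10, with Cd4 and Cd8a, that had at least 10 counts in every library.

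Cd5 (ENSMUSG00000024669; chromosome 19, 10792633 to 10813464, minus strand, mm9) encodes a surface receptor that dampens receptor signalling and is also found on a class of B cells. It was at 0.249, 0.294 and 0.60 CPM in controls and 1.37, 5.52 and 1.38 CPM in knockouts. Knockouts 1 and 3 were almost equal, and knockout 2 was several times higher than both. The log2 fold change was 2.86 (SE 0.73; edgeR, adjusted p 0.0436).

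Cd2 (ENSMUSG00000027863; chromosome 3, 101079822 to 101091862, minus strand, mm9) encodes an adhesion receptor of T and NK cells. It was at 0.0995, 0.646 and 0.60 CPM in controls and 1.67, 5.12 and 1.30 CPM in knockouts. The groups did not overlap, but control 1 rested on 2 counts (exact Poisson 95% interval 0.012 to 0.359 CPM). The log2 fold change of 2.60 (SE 0.79) did not pass over all genes (edgeR, adjusted p 0.0621). It was 1.74 without knockout 2 (edgeR, adjusted p 0.164) and 2.09 without control 1 (adjusted p 0.132). It was called without knockout 1 (2.86), with library size alone in place of TMM (2.90, where 19.7% of all genes were called higher) and by DESeq2's Wald test (2.58).

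Gzmb (ENSMUSG00000015437; chromosome 14, 56877693 to 56881097, minus strand, mm9) encodes granzyme B, a protease of the cytotoxic granules of activated T and NK cells. It had 3, 3 and 4 counts in controls and 5, 16 and 2 counts in knockouts. Knockout 3 was the lowest of all libraries and knockout 2 the highest in counts. In CPM, control 1 was lowest, at 0.149, and knockout 2 was highest, at 0.803 (exact Poisson 95% interval 0.459 to 1.30). With no filter its log2 fold change was 1.09 (edgeR, adjusted p 0.367). Knockouts 1 and 3, at 0.245 and 0.153 CPM, lay close to the controls, so no difference between the groups was shown.

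**Figure D3:**
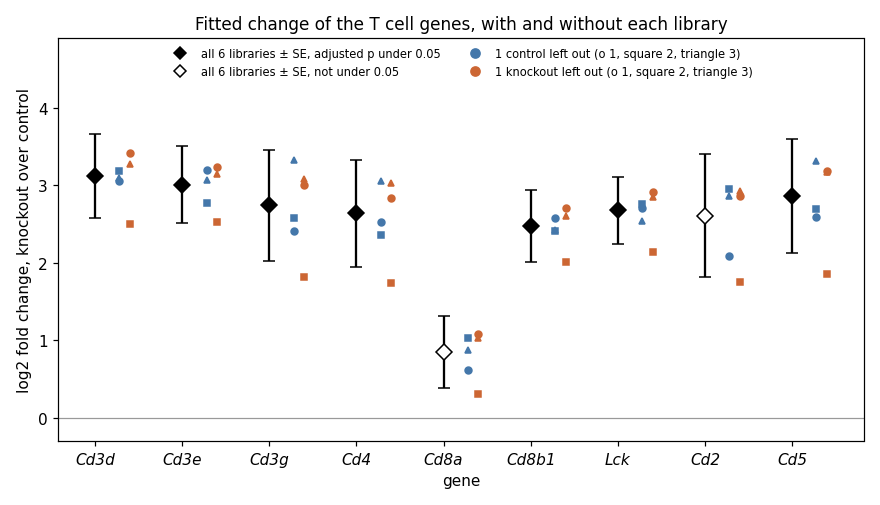
Log2 fold change of knockout over control (vertical axis) for the 9 tested T cell genes, as diamonds with the SE over all 6 libraries and as small points with 1 library left out. Without knockout 2 each gene has its lowest value, and Cd8a is the lowest gene in every fit.

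Levels per length were compared as CPM per kilobase of annotated exon. In knockouts Cd3g (4.65 ± 3.82) and Lck (3.77 ± 2.02) were highest, followed by Cd3e (3.12 ± 1.55), Cd3d (2.49 ± 1.52) and Cd4 (2.43 ± 2.01; SD, n = 3 each). Cd2, Cd8b1 and Cd5 were between 1.33 and 1.55, Cd8a was at 0.911 ± 0.490 and Gzmb at 0.282 ± 0.248. Neighbours in this order differed by less than their SD, apart from Cd8a against Gzmb. In controls the levels were close together, from 0.133 ± 0.033 for Gzmb to 0.70 ± 0.424 for Cd3g. Cd8a was the third of the 10 genes in that order, at 0.508 ± 0.146, and the ninth in knockouts.

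The 3 knockouts were unequal. Knockout 2 was the highest knockout for all 10 genes, and its median level over them was 11.7 times the mean of the controls, with a range of 2.90 to 14.9. The same median was 3.83 in knockout 1 and 3.34 in knockout 3. Each of these was above every control in 9 of the 10 genes, the exception being Cd8a in knockout 1 and Gzmb in knockout 3. Kidney epithelium genes ordered the knockouts differently. The summed level of 10 epithelial genes was 12793 CPM in knockout 1, 3893 in knockout 2 and 3592 in knockout 3, against 16743 to 21017 in controls, and its part in the T cell values was not tested.

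The calls depended on 5 of the 6 libraries. Without control 1, control 2, control 3, knockout 2 or knockout 3, 0 of the 9 tested genes were called (edgeR). In each of these fits 8 of the 9 kept an unadjusted p under 0.05. So did many of all genes tested, in the same order 4808 of 15518, 4270 of 15565, 4823 of 15624, 4604 of 15408 and 4456 of 15439. Over all genes 0.0% were then called higher without any 1 control, 0.435% without knockout 2 and 0.013% without knockout 3. The lowest adjusted p values among the T cell genes were then 0.0805, 0.118, 0.0927, 0.0540 and 0.0564. Without knockout 1, 8 of 9 were called (18% of all genes tested were called higher), Cd2 being the addition. Leaving out control 2, the library that stood apart in sex-linked transcripts, gave a median log2 fold change of 2.69 and values of 3.18 for Cd3d, 2.76 for Cd3e, 2.36 for Cd4 and 2.76 for Lck. Leaving out knockout 2 lowered the median from 2.68 to 1.85, with Cd3d at 2.49, Cd3g at 1.82, Cd4 at 1.73, Cd2 at 1.74 and Cd5 at 1.85. DESeq2's Wald test, from the package used in the study, called 8 of the 10 (15.4% of all genes were called higher), and limma-voom called 4 of 9, namely Cd3d, Cd3e, Cd8b1 and Lck (7.33%). With at least 10 counts required in every library, Cd4 and Lck were called of the 3 genes left (10% of all).

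Other genes of T cells were taken as 5 lists of 79 genes in all, of which 60 were tested, 34 were called higher (10.6% of all genes tested) and 0 lower (6.64% of all). As with the 10 genes, some of these passed the filter through the knockouts (Zap70, Tnfrsf9 and Ccr7 had fewer than 10 counts in every control), so these counts are a description too. In T cell receptor signalling 11 of 17 tested genes were called higher, with a median log2 fold change of 1.99. Zap70, the kinase recruited to phosphorylated CD3 chains, was at 0.398, 0.529 and 0.420 CPM in controls and 2.40, 5.52 and 3.83 CPM in knockouts (log2 fold change 3.11, SE 0.43; edgeR, adjusted p 0.0271). Here knockouts and controls were well apart. The surface receptor Cd6 rose by 3.26 and the adaptor Fyb by 2.78 on the log2 scale. Knockout 2 was far the highest library for both. Cd6 was at 2.26, 8.18 and 1.38 CPM in knockouts. Fyb was at 71.8 CPM in knockout 2, and knockout 3 was the next highest, at 24.4 CPM. Plcg1, which epithelial cells also express, had a log2 fold change of 0.41 (SE 0.13) and was not called. Cd247, which encodes the zeta chain of the receptor complex, was at 0.689 CPM in knockout 3, below control 3 at 1.02, and was not called either (log2 fold change 1.99, SE 0.81; edgeR, adjusted p 0.12). It was named after its values were seen, as were Prkcq (-0.52) and Rasgrp1 (-0.07), the 2 tested genes of this list with log2 fold changes below 0, neither of them called. The mean control levels of Prkcq and Rasgrp1, 15.5 and 15.2 CPM, were far above those of Cd3d (0.373) and Cd3e (0.55). The cells that held them were not identified.

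Among co-stimulatory and checkpoint receptors 6 of 11 tested genes were called higher, again beside 10.6% of all genes, with a median of 2.41. Tnfrsf9 (4-1BB), which activated T cells carry, was at 0.0498, 0 and 0.12 CPM in controls and 0.834, 2.06 and 1.53 CPM in knockouts. The interleukin 7 receptor Il7r, which sustains resting T cells, rose by 4.31, Il2rb by 3.14 and the co-stimulator Icos by 2.76 on the log2 scale. Knockout 2 was far the highest for each. Il7r was at 2.40, 22.7 and 5.75 CPM in knockouts, Il2rb at 3.04, 15.4 and 4.37, and Icos at 1.77, 6.12 and 1.23. Without knockout 2, only 1 of the 60 tested genes of the T cell lists was called (edgeR). Tnfrsf18 was not called, with a log2 fold change of 0.66 (SE 0.29). For transcription factors of the T lineage 5 of 13 tested genes were called higher, with a median of 1.21. They included Ikzf1 (2.41), Tcf7 (2.37), the type 1 helper factor Tbx21 (2.29) and Runx3 (2.23). Zbtb7b, the factor of CD4 lineage choice, which the kidney expressed at 53.4 to 71.5 CPM in all libraries, had a value of -0.10 (SE 0.15). Bcl11b, a factor of T cell commitment, had a value of the other sign, with 11.8, 13.9 and 18.5 CPM in controls and 9.13, 8.73 and 4.21 CPM in knockouts. The groups did not overlap, and the difference was not called (log2 fold change -0.99, SE 0.34; edgeR, adjusted p 0.0814). Bcl11b was named after its values were seen. Its control levels were far above those of the CD3 genes, and the cells that held it were not identified.

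Of the 5 T cell lists the cytotoxic one was the thinnest, since 8 of its 13 genes, among them Prf1, Fasl and Ifng, were too low to be tested. Of the 5 tested genes 3 were called higher (10.6% of all genes), namely Ctsw (2.60), Serpinb9 (1.51) and Srgn (1.25), of which the last 2 were at 23.1 CPM or more in every control. Nkg7, a granule protein, had a log2 fold change of 1.90 (SE 0.64) and was not called. In the list of trafficking receptors and chemokines 9 of 14 tested genes were called higher, with a median of 2.19. Ccl5, a chemokine that T cells release, was at 0.995, 0.999 and 1.26 CPM in controls and 6.53, 13.8 and 7.89 CPM in knockouts, without overlap (log2 fold change 3.11, SE 0.38; edgeR, adjusted p 0.0271). Ccr7 rose by 3.44 and Ccr2 by 3.41 on the log2 scale. Knockout 2 was the highest for both, with 1.96, 5.92 and 2.76 CPM of Ccr7 and 28.4, 81.9 and 23.1 CPM of Ccr2 in knockouts. S1pr1, which endothelium expresses too, had a value of 0.68 (SE 0.28) and was not called. The chemokine Cxcl11 was the 1 tested gene of this list below 0 (-1.0, not called), and was named after its values were seen.

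**Figure D4:**
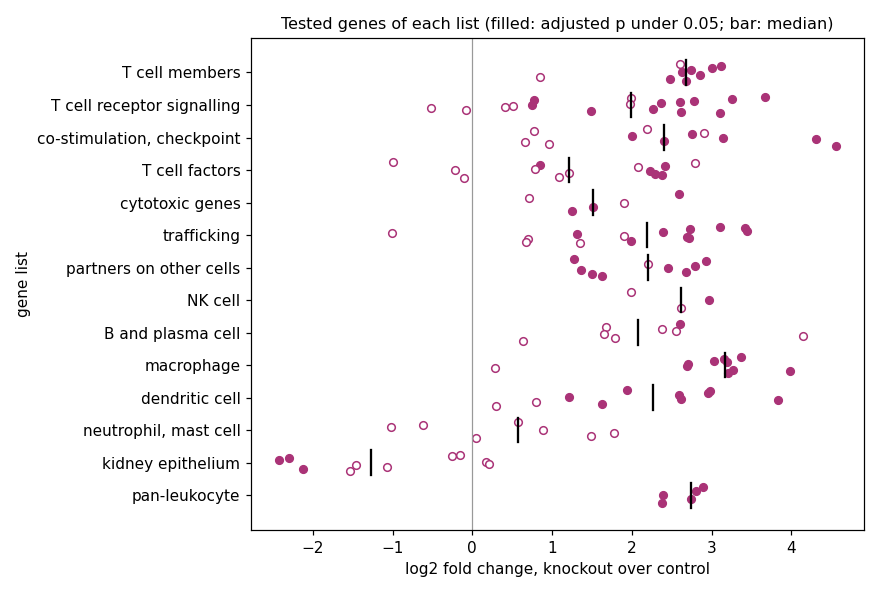
Log2 fold change of knockout over control (horizontal axis) of each tested gene, grouped by list, with filled points for an adjusted p under 0.05 and bars for the median. The T cell genes have a median of 2.68, near the 2.74 of 5 pan-leukocyte genes and below the 3.17 of macrophage genes.

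Molecules that T cell receptors and adhesion receptors bind on other cells were taken as a further list, in which 8 of 9 tested genes were called higher (10.6% of all genes tested). The class II genes H2-Aa, H2-Eb1 and H2-Ab1, partners of CD4, had log2 fold changes of 2.79, 2.68 and 2.45, and the class I genes H2-K1 and H2-D1, partners of CD8, had 1.5 and 1.37 (both named after their values were seen). Cd48, the ligand of mouse CD2, rose by 2.93, and was at 4.42, 23.3 and 6.74 CPM in knockouts, with knockout 2 far the highest. The co-stimulatory ligand Cd86 had a value of 2.21 (SE 0.65) and was not called.

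Markers of other leukocytes were counted in the same way, and all 5 pan-leukocyte genes were called higher (10.6% of all genes tested). The pan-leukocyte gene Ptprc (CD45) was at 12.9, 12.2 and 14.3 CPM in controls and 36.6, 126 and 42.5 CPM in knockouts, with knockout 2 again the highest (log2 fold change 2.38, SE 0.49; edgeR, adjusted p 0.0317). The log2 ratio of Cd3e to Ptprc was -4.56 ± 0.42 in controls and -3.80 ± 0.32 in knockouts (SD, n = 3 each). The highest control, at -4.162, and the lowest knockout, at -4.158, were almost equal. The difference of 0.76 had an exact permutation p of 0.1 (two-sided), which is the smallest possible, and 0.1 after adjustment. With 2 in place of 0.5 added to each count the difference was 0.59, with an exact permutation p of 0.2.

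Of 10 macrophage genes 9 were called higher, where 10.6% of all genes tested were, and their summed level was 194 to 223 CPM in controls and 627 to 2229 CPM in knockouts. For dendritic cells 8 of 10 were called, with sums of 18.8 to 19.1 and 53.3 to 121.8 CPM. Among NK cell markers only 3 of 10 could be tested and 1 (Klrd1) was called, with sums of 1.34 to 2.28 and 4.22 to 18.4 CPM. Klra4 was at 0 counts in every library, and Ncr1 had between 0 and 17 counts. B and plasma cell genes had 1 of 8 tested genes called (Blk), a share near that of all genes, but all 8 had values above 0, with a median log2 fold change of 2.08. Their sums were 9.35 to 21.2 and 26.8 to 360.5 CPM, of which Jchain made 313 CPM in knockout 2. Of 7 tested neutrophil and mast cell genes 0 were called (edgeR; 0 had an unadjusted p under 0.05), with sums of 3.17 to 9.24 and 4.52 to 19.5 CPM. The summed level of the 10 T cell genes was 6.72 to 9.48 CPM in controls and 26.8 to 78.4 CPM in knockouts. Several of these genes, such as Cd2, Cd5, Cd8a, Gzmb and Lck, are shared with NK, B or dendritic cells, whose part in the T cell values was not tested.

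**Figure D5:**
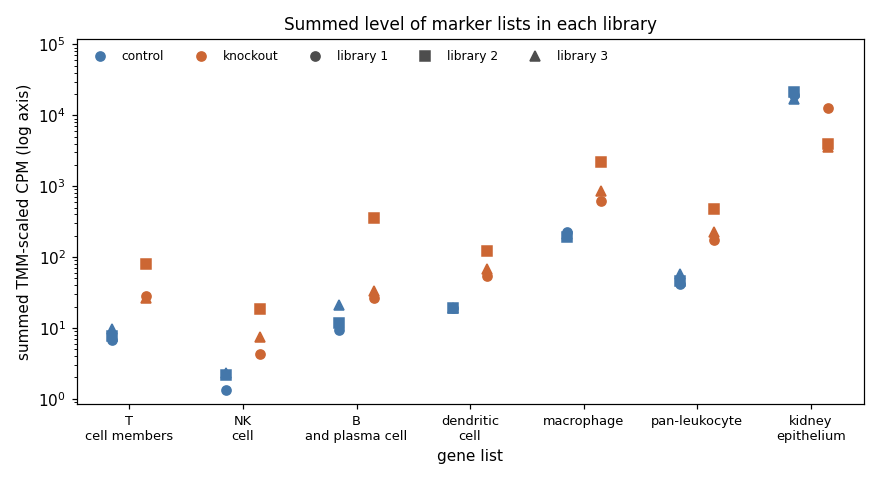
Summed TMM-scaled CPM (vertical log axis) of each marker list in the 6 libraries, coloured by group and shaped by library number. The T cell sum is 6.72 to 9.48 CPM in controls and 26.8 to 78.4 CPM in knockouts, and knockout 2 is the highest library in all the leukocyte lists shown.

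Genes whose levels followed the T cell genes most closely were sought over the 6 libraries, outside the lists and among 13553 genes whose average log2 CPM was 1 or more. The measure was the Pearson correlation with the mean of the standardised log2 CPM of the 9 tested genes. The 5 highest were Gpr34 (0.998), Adcy7 (0.998), Lpcat2 (0.997), Wdfy4 (0.997) and Spib (0.997), and 31 genes were above 0.99. These points share the contrast of the groups and the peak in knockout 2, as Gpr34 shows with 0.249, 0.353 and 0.540 CPM in controls and 1.91, 10.54 and 2.15 CPM in knockouts. Among the T cell genes themselves the correlation with their mean was 0.991 for Cd5, 0.981 for Cd3d and for Cd3g, and lowest for Cd8a (0.873). Each of these genes is itself part of that mean, so high values were built in.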

How the data were processed

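The 10 members, the gene lists and the tests were chosen with earlier results of these data known. Deposited values are raw counts per gene. Per the methods of the study and the processing notes, the authors made read files with CASAVA 1.8.2, trimmed them with Trimmomatic, aligned poly-A RNA reads to mm9 with TopHat2 2.0.11, kept unique alignments and counted them with HTSeq. The annotation and strand setting are not given in the sources used here, and replicates were not pooled. Groups came from the sample titles. Counts were fitted with edgeR 4.0.16 (filterByExpr with a minimum count of 10 and a minimum total of 15, TMM, legacy quasi-likelihood test, R 4.3.3) over all 6 libraries with no covariate, checked on simulated data, and calls are adjusted p under 0.05 over 15171 genes. The SE is the size of the log2 fold change divided by the square root of F. The kidneys are biological replicates, and depth (11501053 to 21001341 counts) gave the members 2 to 40 counts per control. Poisson intervals cover counting error only. Alternatives were other scalings and filters, DESeq2 1.42.0, limma-voom (limma 3.58.1), the newer quasi-likelihood version, each library left out and a replicate block. Ratios of counts (0.5 added) were tested by exact permutation. Positions and lengths are from GENCODE M1 (NCBIM37, mm9). Motifs were chosen with the promoters in view. Of other lists, the text names up to 4 called genes with the largest change and the most abundant uncalled one for those of T cells and their partners, and Ptprc, Cd247 and single markers, chosen after their values were seen. Some genes that this rule names are not reported here.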

Additional observations from a re-analysis of the deposited data

How the results depend on the processing

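The members kept their direction in all alternatives, with 0 reversals among the 9 tested genes. For the 8 whose groups did not overlap, leaving out 1 library could hardly reverse the sign, so this is no test of them. Beside 7 of 9 members, 34 related genes and 2612 genes in all, a filter of at least 10 counts in every library left 3 members, of which 2 were called. Limma-voom called 4 members and 16 related genes, and DESeq2's Wald test called 4861 genes in all. Fits that each left out 1 library called 0 to 8 members, 0 to 42 related genes and 0 to 5332 genes, and the median of the members ranged from 1.85 (without knockout 2) to 3.05. The lowest unadjusted count in these fits was 4270 genes with p under 0.05. A replicate block, whose numbers did not pair the libraries (correlations of deviations -0.13, 0.01 and 0.21), called 0 members, 0 related genes and 0 genes, with 8 members and 5432 genes at an unadjusted p under 0.05, a median of 2.57, and differences of -1.63 (Cd8a to Cd4) and 0.76 (Cd3e to Ptprc), each with an exact sign-flip p of 0.25. The ratios ranged from -2.03 to -1.13 and from 0.54 to 0.96 without 1 library. With library size alone the median over all genes moved by 0.27, and 81.8% of calls were higher (61.4% with TMM). The cause of these changes was not tested, and counts under 10 in at least 1 library limit the precision for all members but Lck, Cd4 and Cd8a.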

Other observations

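Some T cell genes that the filter removed were seen mainly in 1 library. They are given as counts, named after their values were seen, with no test. Themis, needed for T cell maturation, had 5, 3 and 0 counts in controls and 9, 81 and 5 in knockouts. Ubash3a, a brake on receptor signalling, had 1, 2 and 1 in controls and 9, 59 and 4 in knockouts. The checkpoint receptors Ctla4 (1, 1 and 0 against 4, 49 and 3) and Pdcd1 (1, 0 and 2 against 10, 55 and 4) had the same shape, as did the ligand Cd40lg of helper T cells (0, 1 and 1 against 10, 29 and 2). In each of these 5 genes knockout 2 held most of the counts, and knockout 3, the shallowest library, at most 5. Foxp3, the factor of regulatory T cells, was tested and stood at 0.0995, 0.118 and 0.480 CPM in controls and 0.834, 2.91 and 1.07 CPM in knockouts. The groups did not overlap, and the log2 fold change of 2.79 (SE 0.78) lay just outside the threshold (edgeR, adjusted p 0.0515).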
